A study of Mus musculus with 12 samples.

Results

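Liver RNA of wild-type male mice on a high-fat diet was compared with that of wild-type male mice on a low-fat diet, over all genes measured. The comparison rests on 6 of the 12 two-colour arrays of the study, 3 per diet, chosen by their genotype and diet labels and paired by replicate number. Both groups were C57BL6/J mice weaned at 3 weeks, onto a diet with 60% fat (high fat) or 10% fat (low fat), and killed at 14 weeks. The other 6 arrays, 3 per diet, hold livers of Cyp1b1 null mice kept in the same way. Their values are given only beside those of wild-type livers. They also entered the fit, so the SEs and p-values of the wild-type comparison rest on all 12 arrays. On every array the sample was labelled with Cy3 and pooled liver of low-fat wild-type mice with Cy5, so each value below is a log2 ratio of sample over that pool and each difference is high fat minus low fat on the log2 scale. The labels describe 3 pooled samples behind each array without saying whether the replicates were separate pools of mice, so the p-values measure the spread between arrays. A pool also hides the spread between single mice.

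A liver that receives much fat and little carbohydrate can burn fatty acids in mitochondria and peroxisomes, store them as triglyceride or export them in lipoproteins, and it makes fewer fatty acids from sugar when carbohydrate is scarce. Fatty acids are ligands of the nuclear receptor PPARalpha, which drives genes of fatty acid oxidation, while the factors SREBP1c and ChREBP drive genes of fatty acid synthesis in response to insulin and glucose. The liver also turns cholesterol into bile acids, breaks down amino acids, and runs a molecular clock that responds to feeding.

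Array 1 of the low-fat group stood apart. Over all genes, log ratios of the 3 high-fat arrays correlated at 0.62 to 0.789 with each other. Those of low-fat array 1 correlated at -0.0861 and 0.0816 with low-fat arrays 2 and 3, which correlated at 0.361 with each other. These correlations are across genes, which are not independent replicates. The within-pair differences had an SD over genes of 0.634 in pair 1, 0.505 in pair 2 and 0.309 in pair 3. Results are therefore given over all 3 pairs and over pairs 2 and 3 alone. Same-numbered wild-type arrays shared a slide and a scan. Hepatocyte markers were well above background on all 6 arrays for 18 of 19 genes tested. So were 23 of 24 Kupffer cell and macrophage markers, 25 of 29 stellate cell and matrix genes and 21 of 22 sinusoidal endothelial markers, so RNA of other liver cells was measured too. In such bulk samples, fewer cells of a type and less RNA per cell cannot be told apart.

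No gene was called different between high-fat and low-fat wild-type livers. Genes with the smallest p-values included Cd9, Notch3 and Gas6, which were lower on high fat, and Gna14, Setd4, Gulo, Tdo2 and Dio1, which were higher. Fatty acid oxidation, bile acid and pericentral genes mostly had positive differences, and genes of fatty acid synthesis, acute phase proteins, antigen presentation and the cell cycle mostly negative ones. Of 14911 genes, 0 (0%) passed an adjusted p of 0.05 in limma with Benjamini-Hochberg adjustment, and the smallest adjusted p was 0.0531. An unadjusted p under 0.05 was reached by 2190 genes (14.7%), 942 of them higher (6.32%) and 1248 lower (8.37%). The 3 high-fat arrays did not overlap the 3 low-fat arrays for 1484 genes (9.95%). All 3 pairs were higher for 2495 genes (16.7%) and lower for 2491 (16.7%). The median difference over all genes was -0.0042, with 49.4% of genes higher.

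The count of 0 depends on the processing and on single arrays. Fits of the 6 wild-type arrays alone also called 0 genes. Limma's smallest adjusted p was then 0.376 with the arrays paired and 0.658 without pairing, against 0.0531 above. Scaling the log ratios to one spread on every array gave 486 genes past the threshold, 169 higher and 317 lower on high fat. Leaving out high-fat array 3, low-fat array 3 or both gave 17 genes. These are the same fit for this comparison, since the scan of pair 3 held no other array. Leaving out low-fat array 1 gave 11 genes, leaving out both arrays of pair 1 gave 9, and leaving out null low-fat array 1 gave 6. On simulated data made to resemble these arrays, 62% of genes given a log2 change of 1 and 70% of those given -1 were recovered, against 98% and 100% for changes of 2 and -2. The simulated noise was drawn independently for each gene and array. It therefore lacked the deviation that genes share on low-fat array 1, and these rates may not hold for the real arrays.

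The genes nearest the threshold are shown first with the array probes that read 3 of them, since each value stands for hybridisation to 1 such sequence. Of 108 genes named with values here, 30 had several measured probes. No further probe had the opposite sign, and for 20 genes at least 1 gave a difference over 1.5 times smaller, which is printed beside the gene. The 60-base probes are printed 5′ to 3′ as deposited.
Cd9, chromosome 6: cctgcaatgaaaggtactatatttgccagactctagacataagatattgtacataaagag
Notch3, chromosome 17: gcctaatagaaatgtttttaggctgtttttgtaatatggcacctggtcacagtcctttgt
Gna14, chromosome 19: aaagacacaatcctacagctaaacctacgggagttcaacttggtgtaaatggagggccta

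Cd9 encodes a tetraspanin, a membrane protein of surface microdomains and extracellular vesicles. Its log2 ratios were -2.53, -2.91 and -2.32 on the high-fat arrays, against -0.08, -0.85 and -0.83 on the low-fat arrays. Every high-fat value lay below every low-fat value. The difference was -2.00 (SE 0.235), about 4-fold, with limma's adjusted p = 0.0531, and it was -1.78 over pairs 2 and 3. Without the term for the pairs the adjusted p of Cd9 was 0.0432, the only call of that fit. Notch3, a receptor of the Notch pathway known from vascular mural cells, had ratios of -1.14, -1.10 and -1.84 on high fat, against 0.00, -0.12 and -0.69 on low fat. Its difference was -1.09 (SE 0.127), with an adjusted p of 0.0531 in limma, or 0.365 without the term for the pairs. Gas6, the ligand of the Tyro3, Axl and Mertk receptors, stood at -1.29, -1.47 and -1.10 on high fat, against 0.21, -0.28 and 0.22 on low fat, a difference of -1.34 (adjusted p = 0.0549). For Notch3 and Gas6 the groups did not overlap either, and pairs 2 and 3 alone gave -1.07 and -1.26.

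Among the other genes of smallest p on the lower side, Hcar2 encodes the receptor for the ketone body beta-hydroxybutyrate and for niacin. It stood at -1.18, -1.74 and -1.50 on high-fat arrays, against 0.33, 0.31 and -0.68 on low-fat arrays, and differed by -1.46 (adjusted p = 0.0549). Agilent's own processed signals called Hcar2 and no other gene. Il1b, the inflammatory cytokine interleukin 1 beta, stood at -1.45, -1.34 and -1.17 on high fat, against -0.05, -0.54 and -0.26 on low fat, with a difference of -1.04. Smaller or similar differences were found for the transmembrane protein gene Tmem51 (-1.35), the kinase gene Map4k4 (-1.26), Arhgef16 (-1.25), Comtd1 (-0.99), Rell1 (-0.90), the small GTPase gene Rnd3 (-0.88) and Nbdy (-0.86). A second Rell1 probe gave -0.33, and further Rnd3 probes gave -0.42 and -0.17. The 12 lower genes had adjusted p-values of 0.0531 to 0.0594 in limma. Without the term for the pairs these ranged from 0.0432 (Cd9) to 0.682 (Rnd3). All 12 were picked for not overlapping between diets, so that feature is no finding.

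On the higher side, Gna14, a G protein alpha subunit of the Gq class, had ratios of 1.02, 2.00 and 1.20 on high fat, against 0.07, 0.82 and 0.23 on low fat. The difference was 1.04 (SE 0.125), with adjusted p = 0.0531 in limma. Setd4, a SET domain methyltransferase gene, was even on high fat, at 1.01, 1.14 and 1.08, against -0.38, 0.23 and 0.06 on low fat, and differed by 1.11 (adjusted p = 0.0531). Gulo encodes the last enzyme of vitamin C synthesis. It stood at 0.76, 0.73 and 0.33 on high-fat arrays, against -0.24, -0.23 and -0.41 on low-fat arrays, a difference of 0.90 (adjusted p = 0.0594). A second Gulo probe gave 0.40, so the probes differ in size. Tdo2, the liver enzyme that opens the tryptophan ring, stood at 1.39, 1.21 and 0.99 on high fat, against 0.22, -0.67 and 0.15 on low fat, and differed by 1.29 (SE 0.210), with 0.72 at a second probe.

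Dio1, the deiodinase that activates and clears thyroid hormone in liver, had ratios of 1.95, 1.80 and 1.34 on high fat, against -0.16, 0.12 and 0.65 on low fat. Its difference of 1.49 (SE 0.255, adjusted p = 0.0719) was the largest among the 12 higher genes. Pairs 2 and 3 alone gave 1.18 for Dio1 and 1.36 for Tdo2. The growth factor gene Fgf1 differed by 1.25, with 0.37 at a second probe. The hydrolase gene Cmbl differed by 1.09, the carnitine-related cation transporter gene Slc22a4 by 1.02 and the steroid dehydrogenase gene Hsd3b6, which has close paralogs that its probe may also read, by 0.88. Aqp9, the channel for glycerol entry into hepatocytes, differed by 0.83, the peroxisomal dienoyl-CoA reductase gene Decr2 by 0.73 and the Wnt receptor gene Fzd8 by 0.62, or 0.41 at a second probe. The adjusted p-values of the 12 higher genes were 0.0531 to 0.0748 in limma. Without the term for the pairs these ranged from 0.115 (Setd4 and Fgf1) to 0.524 (Gna14). These 12 genes too were picked for not overlapping between diets. Within-pair differences of Dio1 were 2.11, 1.68 and 0.69.

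**Figure D1:**
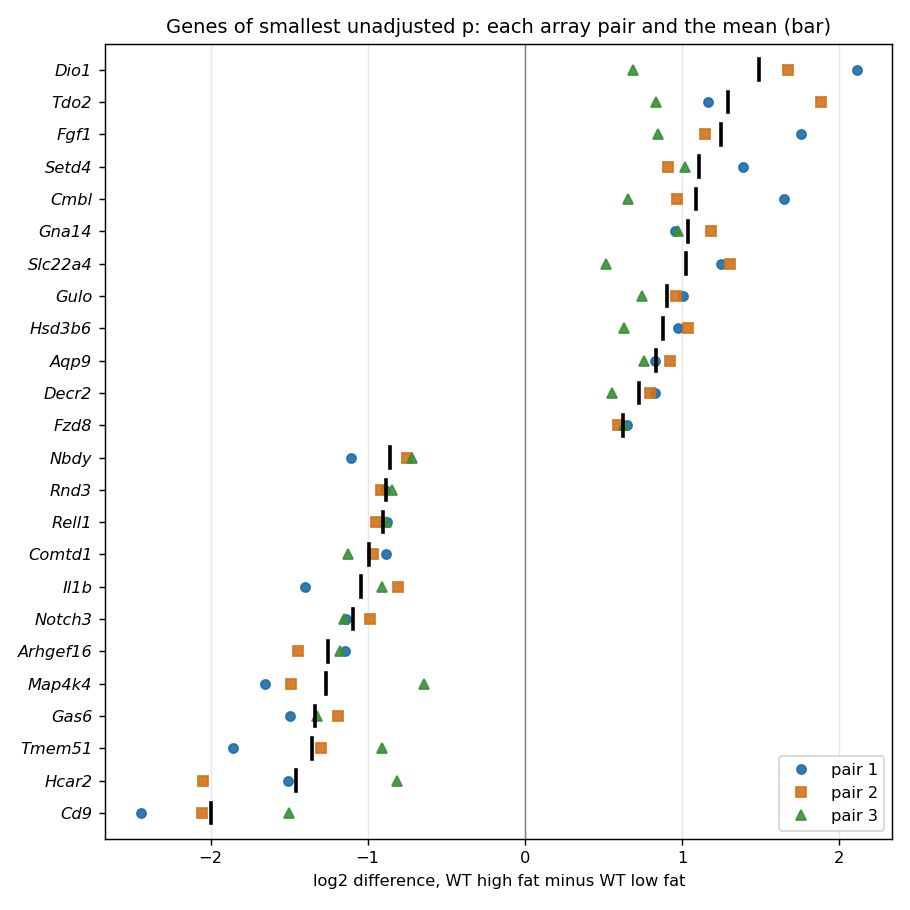
The 24 genes of smallest unadjusted p whose arrays did not overlap between diets, 12 per direction, with the log2 difference of high fat minus low fat in each of the 3 array pairs (symbols) and their mean (bar). The smallest within-pair difference among them was 0.513 in size, and none passed an adjusted p of 0.05.

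A probe without a gene name, A_52_P517668, had the difference of greatest size among those with an adjusted p of 0.0531. Its ratios were -2.93, -3.75 and -3.37 on high fat, against -0.93, 0.82 and -0.28 on low fat, a difference of -3.22 (SE 0.431). It was outside the rule for named genes and was chosen after its values were seen.

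Genes of fatty acid oxidation leaned to the high-fat side. Of 33 genes on the list, 30 had positive differences, with a median of 0.32, against -0.0042 over all genes tested. The median was 0.51 in pair 1, 0.41 in pair 2 and 0.07 in pair 3. An unadjusted p under 0.05 was reached by 12 genes, all of them higher (36.4%, against 6.32% of all genes), and no gene passed the adjusted threshold. Acad11, which starts the oxidation of long acyl chains, stood at 1.54, 0.88 and 0.77 on high fat, against 0.70, -0.61 and 0.14 on low fat. It differed by 0.99 (SE 0.190, adjusted p = 0.0971). Decr1, the mitochondrial reductase for unsaturated fatty acids, stood at 1.52, 1.05 and 1.09, against 0.22, -0.14 and 1.02 on low fat, and differed by 0.86, or 0.55 at a second probe. Decr2, its peroxisomal counterpart, stood at 0.48, 0.71 and 0.38, against -0.36, -0.09 and -0.18 on low fat. Echs1, the short-chain enoyl-CoA hydratase, differed by 0.57. The groups did not overlap for any of these 4 genes, although low-fat array 3 lay just below the high-fat arrays for Decr1. The 4 were picked for the smallest p on the list, which favours such groups. Over the list the groups did not overlap for 7 of 33 genes, against 9.95% of all genes.

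PPARalpha targets had 27 of 33 positive differences and a median of 0.29. At unadjusted p-values under 0.05, 8 genes were higher (24.2%, against 6.32% of all genes). Another 3 were lower (9.09%, near the 8.37% of all genes). The pair medians were 0.66, 0.31 and -0.09, and pairs 2 and 3 gave a median of 0.23 with 21 of 33 positive. The lists overlap, as oxidation enzymes are PPARalpha targets. Aldh3a2, which oxidises fatty aldehydes, stood at 1.77, 0.88 and 1.22 on high fat, against -0.22, -0.61 and 1.11 on low fat, and differed by 1.19 with 0.80 over pairs 2 and 3. The acylcarnitine carrier gene Slc25a20 differed by 0.57. Pdk4, the kinase that blocks glucose oxidation by pyruvate dehydrogenase, differed the other way. Its ratios were -1.37, -2.07 and -1.32 on high fat, against -0.47, 0.70 and 0.22 on low fat, a difference of -1.74 (SE 0.408, adjusted p = 0.148). Fgf21, the fasting hormone of the liver, stood at -2.66, -2.82 and -2.31, against -0.45, -2.14 and -0.82 on low fat, and differed by -1.46. For both genes the high-fat arrays all lay below the low-fat arrays, but both were picked for small p. Over the list the groups did not overlap for 5 of 33 genes, against 9.95% of all genes.

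The 22 genes of fatty acid uptake, binding and activation were split, with 10 positive differences. Unadjusted p-values under 0.05 were found for 6 higher genes (27.3%, against 6.32% of all genes) and 5 lower ones (22.7%, against 8.37%). Acsl1, which activates long-chain fatty acids, stood at 0.99, 0.87 and 0.86 on high fat, against -0.71, -0.62 and 0.66 on low fat, a difference of 1.13. Further Acsl1 probes gave 0.63 and 0.68. Slc27a2, an acyl-CoA synthetase and fatty acid transporter, differed by 0.83 and the hepatic lipase gene Lipc by 0.63. Lpl, the lipoprotein lipase of extrahepatic tissues and macrophages, stood at -3.20, -3.35 and -2.43, against 0.06, -2.03 and -2.10 on low fat, and differed by -1.64, or -0.83 over pairs 2 and 3. A second Lpl probe gave -0.93. None of the 4, picked for the smallest p on the list, had overlapping groups, and their adjusted p-values in limma were 0.156 to 0.17. Over the list the groups did not overlap for 7 of 22 genes, against 9.95% of all genes.

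Genes of fatty acid and triglyceride synthesis leaned to the low-fat side. Of 35 genes, 24 had negative differences, with a median of -0.37. At unadjusted p-values below 0.05, 11 were lower (31.4%, against 8.37% of all genes) and 2 higher (5.71%, against 6.32%). The pairs were uneven here, with medians of 0.10, -1.11 and -0.31, and -0.70 over pairs 2 and 3. G6pdx, the first enzyme of the NADPH-making pentose phosphate pathway, stood at -0.75, -1.26 and -1.27 on high fat, against 0.48, 1.50 and 0.18 on low fat. It differed by -1.82 (SE 0.322), about 3.52-fold, with adjusted p = 0.0812. Scd1, the desaturase that makes oleate, stood at -1.51, -2.30 and -2.40, against -0.82, 0.39 and -0.93 on low fat, a difference of -1.62 (SE 0.485, adjusted p = 0.205). Gpam, the first step of triglyceride assembly, stood at -1.02, -1.42 and -1.97, against -0.10, 0.87 and -0.77 on low fat, and differed by -1.47. These 3 genes, picked for small p, were lower on high fat in every pair, and their groups did not overlap. Over the list the groups did not overlap for 5 of 35 genes, against 9.95% of all genes.

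Scd2, the related desaturase, was uneven between pairs. Its ratios were -3.44, -4.06 and -3.63 on high fat, against 0.57, -2.39 and -3.51 on low fat, so its difference of -1.93 became -0.89 without pair 1. Among 24 PPARgamma targets and lipid droplet genes, 16 were negative, with a median of -0.10, which turned to 0.02 without pair 3. Plin3, a droplet coat protein, was even within groups, at -1.35, -1.18 and -1.11 on high fat against -0.38, -0.30 and -0.38 on low fat. It differed by -0.86 (SE 0.180, adjusted p = 0.121). Hilpda, a droplet protein that inhibits lipolysis, differed by -0.77, or -0.49 at a second probe, with overlapping groups. Cd36, the fatty acid translocase, stood at -0.75, -1.54 and -0.66, against 0.57, -1.72 and 0.70 on low fat, and its groups overlapped.

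**Figure D2:**
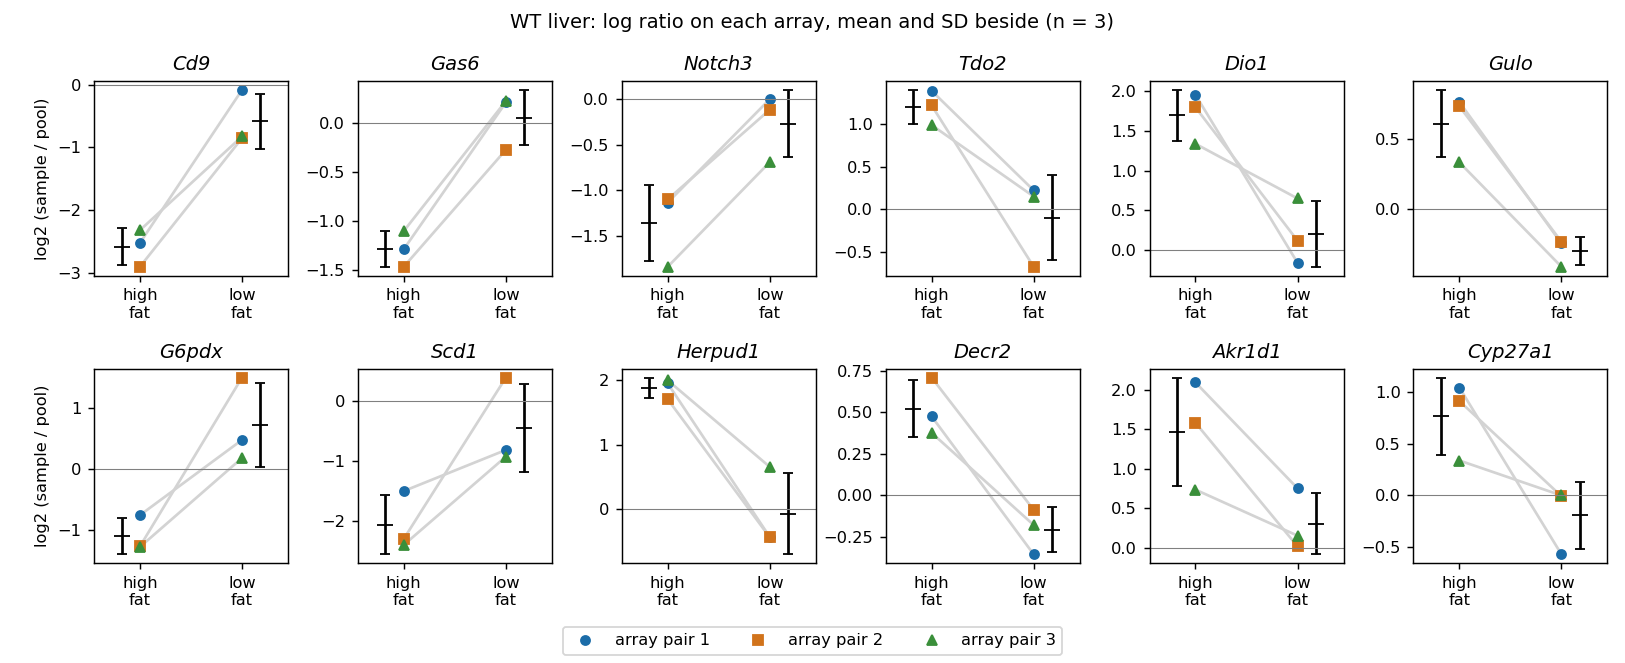
Log2 ratio of sample over pool for 12 genes on each wild-type array, high fat left and low fat right, with grey lines joining arrays of a pair and the mean with its SD (n = 3) beside the points. Each panel has its own scale. The groups do not overlap in 11 panels. Cd9, Gas6, Notch3, Tdo2, Dio1, Gulo and Decr2 were picked for not overlapping, so for them that feature is no finding. The other genes were members of smallest p on their lists, which also favours it. For Akr1d1 the high-fat value of 0.74 lies just below the low-fat value of 0.75.

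Bile acid genes had positive differences for 23 of 25 members, with a median of 0.59. By pair the medians were 1.35, 0.42 and 0.21, and 0.35 over pairs 2 and 3, and all 3 pairs were higher for 18 genes (72%, against 16.7% of all genes). At an unadjusted p under 0.05, 10 genes were higher (40%, against 6.32% of all genes) and none lower. Akr1d1, the reductase that forms the bent steroid ring of bile acids, stood at 2.10, 1.58 and 0.74 on high fat, against 0.75, 0.01 and 0.15 on low fat. It differed by 1.17 (SE 0.197, adjusted p = 0.0719), with higher values in every pair but overlapping groups. Cyp27a1, the sterol 27-hydroxylase of the alternative pathway, stood at 1.04, 0.91 and 0.34, against -0.57, -0.01 and 0.00 on low fat, and differed by 0.96. Nr0b2, the repressor SHP that curbs bile acid synthesis, stood at 1.39, 0.91 and 1.37, against -0.25, 0.71 and 0.42 on low fat, and differed by 0.93. Scp2, the peroxisomal thiolase and sterol carrier, differed by 0.56, with 1 saturated spot in each group.

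Cholesterol synthesis and uptake genes had 17 of 26 positive differences and a median of 0.15. That median was 0.64 in pair 1 and 0.02 over pairs 2 and 3. Unadjusted p-values under 0.05 were found for 6 higher genes (23.1%, against 6.32% of all genes) and no lower one. Msmo1, the sterol C4-demethylase, stood at 1.43, 1.18 and 1.35 on high fat, against -0.21, 0.03 and 0.68 on low fat, a difference of 1.16. Idi1, the isopentenyl diphosphate isomerase, stood at 1.68, 0.92 and 1.01, against -0.06, -0.12 and 0.33 on low fat, a difference of 1.15. Both kept positive differences over pairs 2 and 3, of 0.92 and 0.86. The mevalonate kinase gene Mvk and the squalene synthase gene Fdft1 differed by 0.64 each with overlapping groups, and a second Fdft1 probe gave 0.05. The 4 genes had adjusted p-values of 0.156 to 0.17 in limma.

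Of 28 lipoprotein and sterol efflux genes, 14 were positive, and the list's median was 0.02, or 0.01 over pairs 2 and 3. Apoa4, an apolipoprotein of triglyceride-rich particles, was lower in every pair. Its ratios were -1.61, -4.21 and -2.30 on high fat, against 1.10, -2.13 and -0.55 on low fat, a difference of -2.18 (SE 0.358, adjusted p = 0.0683) with overlapping groups. Abcg8, which with its partner exports sterols into bile, stood at 1.12, 1.07 and 1.30, against 0.03, 0.04 and 0.69 on low fat, and differed by 0.91 (SE 0.169, adjusted p = 0.0913). A second Abcg8 probe gave 0.34. Sar1b, a GTPase of lipoprotein export from the endoplasmic reticulum, differed by 0.75.

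Targets of the xenobiotic receptors CAR and PXR had 19 of 28 positive differences and a median of 0.48, and pairs 2 and 3 gave 0.49. The pair medians were uneven, at 0.17, 0.87 and 0.18, with the largest in pair 2. At an unadjusted p under 0.05, 11 genes were higher (39.3%, against 6.32% of all genes) and 1 lower (3.57%, against 8.37%). Cyp2c54 stood at 3.20, 3.30 and 2.14 on high fat, against -1.40, 1.35 and 0.94 on low fat, a difference of 2.59 (SE 0.679, adjusted p = 0.16) that was 1.58 without pair 1. Cyp2c29 differed by 1.25, the coumarin hydroxylase gene Cyp2a5 by 1.04 and Cyp3a25 by 0.73. All 4 belong to families of near-identical P450 genes whose probes may also read paralogs. Conjugating enzymes were similar in sign, with 15 of 20 sulfotransferase and glucuronosyltransferase genes positive and a median of 0.43 (0.28 over pairs 2 and 3). Their pair medians were 0.59, 0.44 and 0.01. Of these genes, 8 were higher (40%) and 2 lower (10%, near the 8.37% of all genes) at unadjusted p-values under 0.05. Sult1b1, which sulfates thyroid hormones, stood at 2.06, 2.10 and 1.83, against -0.33, 0.86 and 1.14 on low fat, and differed by 1.44 (SE 0.283, adjusted p = 0.108). Sult5a1 stood at 1.43, 2.38 and 1.93, against -0.51, 1.20 and 0.49 on low fat, and differed by 1.52 (adjusted p = 0.108). Ugt2a3 and Ugt2b34 differed by 0.83 and 0.77.

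All 18 pericentral genes, those expressed around the central vein, had positive mean differences, with a median of 0.91. The size rested mostly on pair 1, whose median was 2.06, against 0.24 in pair 2 and 0.34 in pair 3. Over pairs 2 and 3 the median was 0.32 and 14 of 18 were positive. Oat, ornithine aminotransferase, stood at 1.63, 1.38 and 0.91 on high fat, against -0.83, 0.33 and 0.57 on low fat, and differed by 1.28, or 0.69 over pairs 2 and 3. Gulo and Cyp27a1, above, are also on this list. The 17 periportal genes had a median of -0.15 with 6 positive, and 0.19 over pairs 2 and 3, so their direction depends on pair 1, and it also turned under median centring, to 0.06. Cdh1, the epithelial cadherin, stood at -1.34, -1.44 and -1.41 on high fat, against 0.71, -0.21 and -0.81 on low fat, a difference of -1.29 (SE 0.279, adjusted p = 0.127). Arg1, the last enzyme of the urea cycle, differed by 0.67 with overlapping groups.

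The genes of the urea cycle and amino acid breakdown had 30 of 38 positive differences and a median of 0.32. At unadjusted p-values under 0.05, 12 were higher (31.6%, against 6.32% of all genes) and 1 lower (2.63%, against 8.37%). The pair medians were 0.20, 0.16 and 0.44, and 0.26 over pairs 2 and 3. Bhmt, which remethylates homocysteine with betaine, stood at 1.86, 0.81 and 1.05 on high fat, against 0.84, -0.39 and 0.04 on low fat, and differed by 1.08 with 1 saturated high-fat spot. Ahcy, which hydrolyses adenosylhomocysteine, stood at 0.63, 0.45 and 0.14, against -0.51, 0.04 and -0.57 on low fat, and differed by 0.75. Further Ahcy probes gave 0.40 and 0.70. The alanine aminotransferase gene Gpt differed by 0.50, higher in every pair with overlapping groups. On the list of tryptophan, kynurenine and NAD genes, 13 of 18 were positive with a median of 0.18 (0.23 over pairs 2 and 3, and 0.51, 0.44 and 0.08 by pair). There, 7 genes were higher at unadjusted p-values under 0.05 (38.9%, against 6.32% of all genes) and none lower. Beside Tdo2, the aldehyde oxidase gene Aox3 stood at 2.24, 1.68 and 1.64, against 0.57, 1.04 and 0.61 on low fat, a difference of 1.11. Aadat and Kmo, which act on kynurenine, differed by 0.85 and 0.64.

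**Figure D3:**
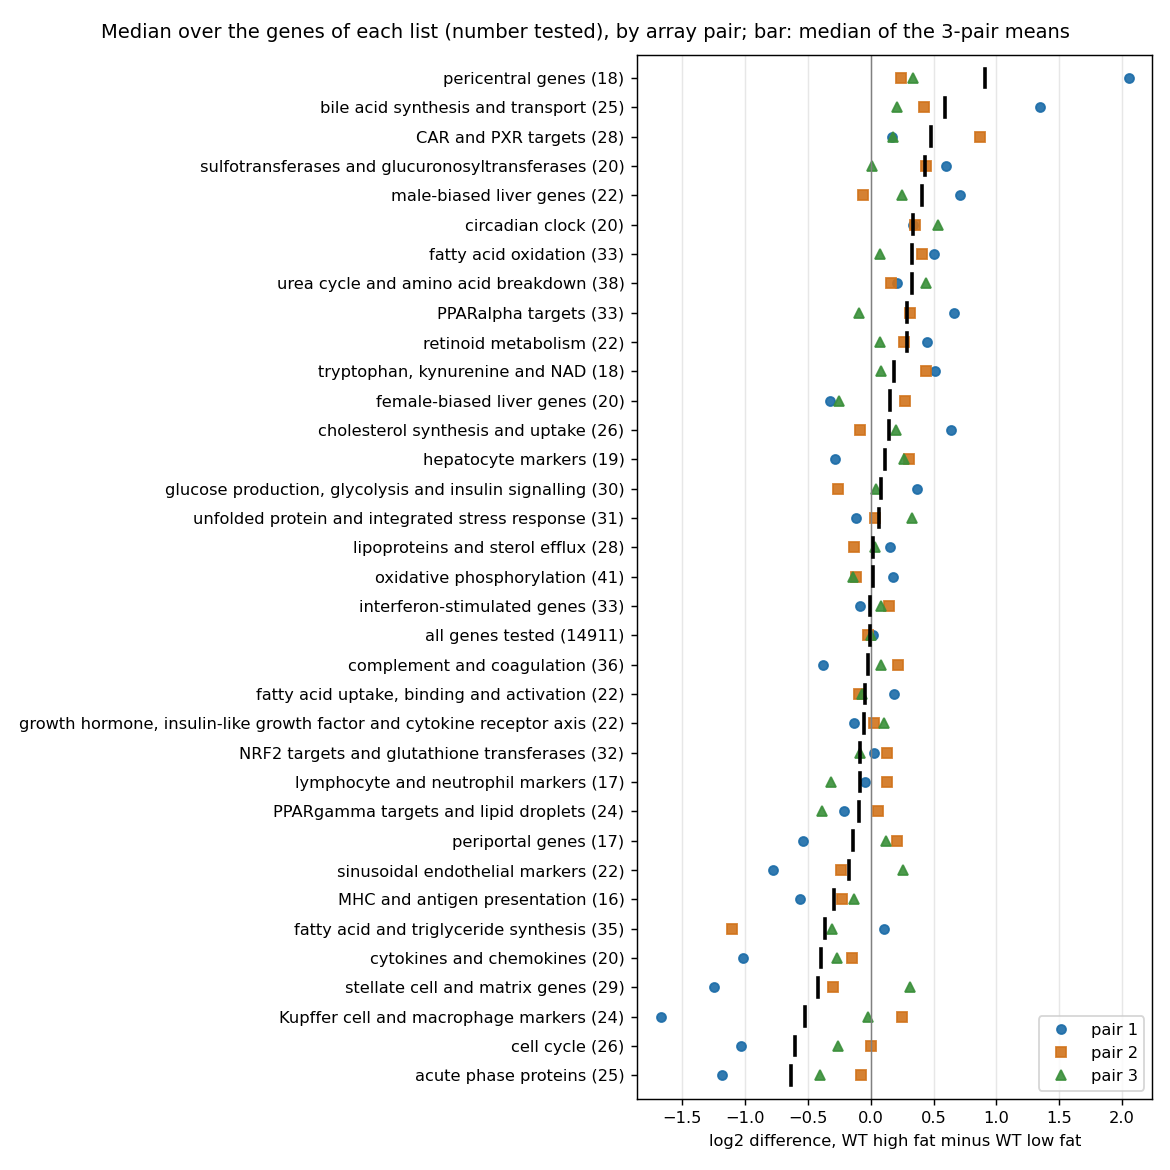
Median log2 difference of high fat minus low fat over the genes of each list with at least 15 genes tested (number in brackets), by array pair (symbols), with the median of the 3-pair means as a bar. Pericentral genes reach 2.06 in pair 1, against 0.24 and 0.34 in pairs 2 and 3, and all genes tested sit at -0.0042.

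Clock genes leaned to the high-fat side, and Arntl, which drives them, to the low-fat side. The clock turns on a loop in which the proteins CLOCK and BMAL1 (gene Arntl) bind E-box letters at genes such as Per1, Per2, Dbp and Tef, and the proteins made from them later shut the loop down or pass its rhythm on. Of 20 clock genes, 14 had positive differences, with a median of 0.33, and pairs 2 and 3 gave 0.55. At an unadjusted p under 0.05, 8 were higher (40%, against 6.32% of all genes) and 2 lower (10%, near the 8.37% of all genes). The groups did not overlap for 9 of 20 (9.95% of all genes). The light cycle in the labels was 12 hours, and they do not give the hour at which the mice were killed.

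Dbp, a PAR-domain activator, stood at 2.05, 2.27 and 2.22 on high fat, against -0.61, 0.57 and 1.26 on low fat. The high-fat arrays lay close together and above every low-fat array, with a difference of 1.78 (SE 0.424, adjusted p = 0.152). Tef, a second PAR-domain activator, stood at 2.19, 1.72 and 1.81, against -0.19, 0.21 and 0.51 on low fat, and differed by 1.73 (SE 0.364, adjusted p = 0.122). The 3 measured Tef probes, all assigned to the gene on chromosome 15, gave 1.73, 0.41 and 0.10, so the size depends on the probe. They are printed because their values differ.
Tef probe at 1.73: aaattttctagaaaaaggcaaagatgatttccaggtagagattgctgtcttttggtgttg
Tef probe at 0.41: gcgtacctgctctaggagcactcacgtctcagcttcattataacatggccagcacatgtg
Tef probe at 0.10: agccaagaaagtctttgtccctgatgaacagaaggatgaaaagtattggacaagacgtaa

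Per2, a repressor of the loop, stood at 0.96, 0.99 and 0.47 on high fat, against 0.17, 0.47 and -0.34 on low fat. All 3 pairs were higher, the lowest high-fat array lay just above the highest low-fat array, and the difference was 0.71 (SE 0.173, adjusted p = 0.155). A second Per2 probe gave 0.09, so the size depends on the probe. Ciart, another repressor, stood at 0.88, 0.42 and 0.68, against -0.03, -0.36 and 0.02 on low fat. Its probe was not well above background on any low-fat array, so it was at least 1.55-fold higher on high fat (adjusted p = 0.133). That bound sets the mean of the high-fat sample channel against the higher of the low-fat signal and the lowest signal well above background.

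Other clock genes were chosen after their values were seen. Hlf, the third PAR-domain activator, stood at 0.91, 0.63 and 1.29 on high fat, against -0.97, 0.19 and 0.50 on low fat, and differed by 1.04. Per1, a repressor, stood at 1.24, 0.29 and 1.20, against -0.18, -0.32 and 0.24 on low fat, and differed by 1.00. Nr1d2, the receptor REV-ERB beta that represses Arntl, stood at 1.02, 1.12 and 1.16, against 0.11, -0.82 and 0.95 on low fat, and differed by 1.03. None of these 3 had overlapping groups. Usp2, a deubiquitinase with a strong liver rhythm, differed by 0.68 and was well above background on 2 of 3 low-fat arrays. Csnk1e, a kinase that marks PER proteins, differed by -0.51. Arntl itself stood at -0.03, -1.32 and -0.89, against 0.90, -0.79 and -0.50 on low fat. It was lower in every pair, by -0.61 on average with overlapping groups and an unadjusted p of 0.104.

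**Figure D4:**
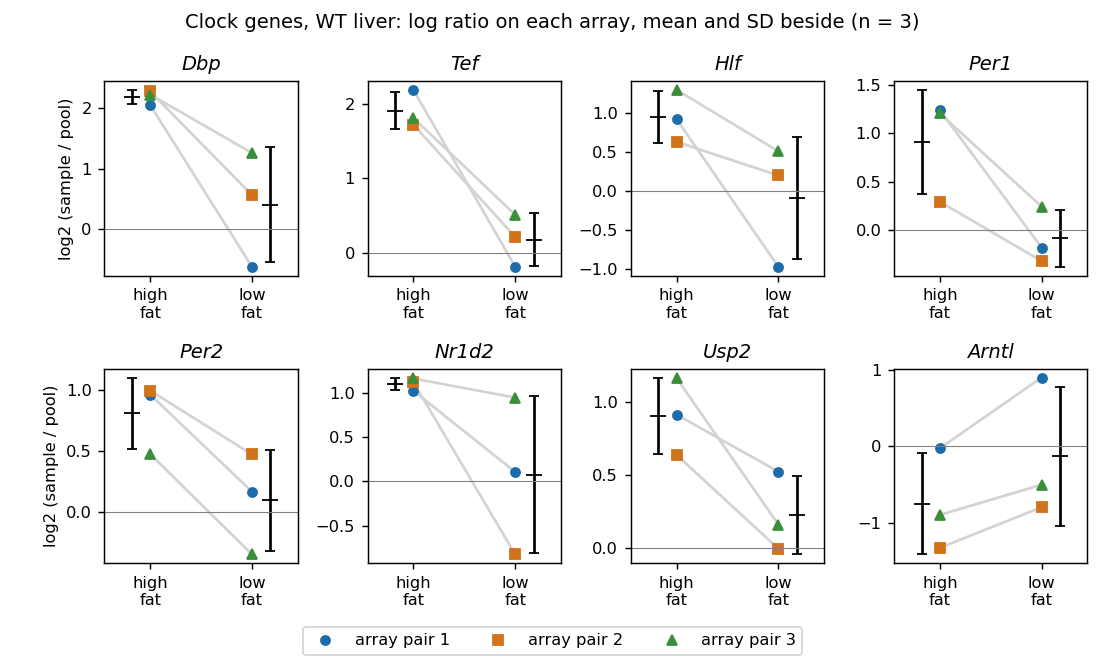
Log2 ratio of sample over pool for 8 clock genes on each wild-type array, high fat left and low fat right, with grey lines joining arrays of a pair and the mean with its SD (n = 3) beside the points. Each panel has its own scale. The groups do not overlap except for Arntl, whose 3 pairs all lie lower on high fat. The panels were picked for small p or after their values were seen, so that feature is no finding. Of the 20 clock genes tested, 9 had groups that did not overlap and 6 had negative differences.

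The promoters of clock genes were searched for the E-box CACGTG and the D-box TTATGNAA, on both strands, in the 250 bases before each transcription start. In RefSeq's table on build GRCm38.p6, 16 of the clock genes were found, with 24 windows. An E-box stood in 5 windows of 4 genes (Ciart, Cry1, Per1 and Tef) and a D-box in 2 windows of 2 genes (Noct and Per1). Of all 32851 windows in the table, 1978 (6.02%) held the E-box letters and 1008 (3.07%) the D-box letters. A match is a description of letters and no evidence of binding here. Windows of 3 genes measured above are printed 5′ to 3′ in the direction of the gene, with matches, which do not overlap, in capitals. The window of Ciart holds 3 E-boxes at chr3:95882229-95882478 on the minus strand. That of Per1 holds an E-box and a D-box at chr11:69098699-69098948 on the plus strand. That of Tef is 1 of 2 Tef windows with a match and holds an E-box at chr15:81811164-81811413 on the plus strand.
Ciart: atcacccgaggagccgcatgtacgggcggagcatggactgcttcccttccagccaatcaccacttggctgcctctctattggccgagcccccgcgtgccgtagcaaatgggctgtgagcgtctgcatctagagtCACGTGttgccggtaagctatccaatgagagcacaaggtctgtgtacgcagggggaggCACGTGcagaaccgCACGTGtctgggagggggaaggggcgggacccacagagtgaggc
Per1: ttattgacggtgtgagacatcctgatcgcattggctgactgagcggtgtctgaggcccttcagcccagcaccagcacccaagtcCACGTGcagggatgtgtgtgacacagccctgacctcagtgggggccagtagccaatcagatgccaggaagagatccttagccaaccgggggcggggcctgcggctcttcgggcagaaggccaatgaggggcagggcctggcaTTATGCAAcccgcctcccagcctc
Tef: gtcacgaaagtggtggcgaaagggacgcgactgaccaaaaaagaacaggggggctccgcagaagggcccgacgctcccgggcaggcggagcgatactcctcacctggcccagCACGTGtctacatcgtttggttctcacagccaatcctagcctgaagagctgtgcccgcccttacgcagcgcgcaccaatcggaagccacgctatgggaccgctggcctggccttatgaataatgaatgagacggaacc

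The lists of acute phase proteins, antigen presentation genes and cytokines had mostly negative differences, with the largest medians in pair 1. Interferon-stimulated genes had 16 of 33 positive and a median of -0.0040, and over pairs 2 and 3 the median was 0.09 with 22 of 33 positive. Lymphocyte and neutrophil markers had 5 of 17 positive and a median of -0.09, or -0.06 over pairs 2 and 3 and 0.01 without pair 3. Acute phase proteins, the plasma proteins that hepatocytes secrete in inflammation, and their regulators had 19 of 25 negative differences and a median of -0.64, with pair medians of -1.19, -0.08 and -0.40, and -0.36 over pairs 2 and 3. Unadjusted p-values below 0.05 belonged to 5 lower genes (20%, against 8.37% of all genes) and no higher one. Cd14, the co-receptor for endotoxin, stood at -1.92, -2.52 and -1.78 on high fat, against 1.23, -1.56 and -1.14 on low fat, and differed by -1.58, or -0.80 over pairs 2 and 3. Orm1, an acid glycoprotein with close paralogs that its probe may read, stood at -1.65, -1.59 and -0.89, against 0.54, -0.70 and -0.30 on low fat, and differed by -1.22. Apcs, serum amyloid P, differed by -1.18 and the haem carrier gene Hpx by -0.52, both with overlapping groups. The adjusted p-values of these 4 genes were 0.17 to 0.289.

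Kupffer cell and macrophage markers had 21 of 24 negative differences and a median of -0.52, which was -1.67 in pair 1, 0.25 in pair 2 and -0.03 in pair 3. Over pairs 2 and 3 the median was 0.07, with 15 of 24 positive, so the direction of the list rests on pair 1. The list's median log ratio by array was -1.15, -1.07 and -0.35 on high fat, against 0.29, -1.42 and -0.28 on low fat. Low-fat array 1 was the highest of the 6 and low-fat array 2 the lowest. Mpeg1, a pore-forming protein of macrophages, differed by -0.97, or -0.58 over pairs 2 and 3, and by -0.15 at a second probe. Trem2, a lipid receptor of macrophages, differed by -1.25, or -0.46 over pairs 2 and 3, and by -0.70 at a second probe, with overlapping groups. Fcer1g, an Fc receptor chain, stood at -0.93, -0.97 and -0.66, against 0.64, -0.41 and -0.27 on low fat, and differed by -0.84. Marco, a scavenger receptor, ranged from -3.82 to -2.08 on high fat and from -3.56 to 0.16 on low fat, so its groups overlapped.

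Antigen presentation genes were lower in all 3 pairs for 10 of 16 members (62.5%, against 16.7% of all genes), with a median of -0.29. The pair medians were -0.56, -0.23 and -0.14, and -0.15 over pairs 2 and 3. At an unadjusted p under 0.05, 5 were lower (31.2%, against 8.37% of all genes) and none higher. Ciita, the activator of class II genes, stood at -0.21, -0.40 and -0.15 on high fat, against 0.35, -0.15 and 0.14 on low fat, and differed by -0.37. H2-Eb1, a class II beta chain, stood at -0.28, -0.61 and -0.43, against 1.25, -0.16 and -0.04 on low fat, and differed by -0.79. Among 20 cytokines and chemokines, 17 were negative with a median of -0.40. The pair medians were -1.02, -0.15 and -0.27, and -0.15 over pairs 2 and 3. Unadjusted p-values under 0.05 were found for 4 lower genes (20%, against 8.37% of all genes) and no higher one. Beside Il1b, the adhesion receptor gene Icam1 stood at -3.10, -2.75 and -2.43, against -0.05, -2.19 and -1.28 on low fat. Icam1 differed by -1.59 at this probe and by -0.40 at a second. The chemokine gene Ccl4 differed by -0.51 and was well above background on 2 of 3 low-fat arrays. The part of macrophage RNA in the values of Cd14, Il1b, Icam1, Ccl4 and the class II genes was not tested.

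Cell cycle genes had 24 of 26 negative differences and a median of -0.61, with pair medians of -1.04, -0.0019 and -0.26, and -0.21 over pairs 2 and 3. At an unadjusted p under 0.05, 6 were lower (23.1%, against 8.37% of all genes) and 1 higher (3.85%, against 6.32%). Foxm1, the activator of mitotic genes, stood at -0.59, -1.36 and -0.73 on high fat, against 0.06, -0.57 and -0.22 on low fat. It differed by -0.65 (SE 0.123, adjusted p = 0.0913), equally so over pairs 2 and 3, and was well above background on 2 of 3 low-fat arrays. Cdk1, the mitotic kinase, stood at -1.63, -1.47 and -1.55, against -0.29, -0.57 and -1.34 on low fat, and differed by -0.82. Rrm2, which makes deoxynucleotides, differed by -0.60 with overlapping groups.

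Stellate cell and matrix genes had 23 of 29 negative differences and a median of -0.42, which was 0.01 over pairs 2 and 3. By array the list's median log ratio was -0.59, -1.32 and -0.44 on high fat, against 0.65, -0.68 and -0.76 on low fat. Mmp14, a membrane collagenase, differed by -1.26, or -1.01 over pairs 2 and 3 and -0.60 at a second probe, and the receptor gene Pdgfrb by -1.01 with overlapping groups. Hepatocyte markers had a median of 0.11 and 11 of 19 positive, with pair medians of -0.29, 0.30 and 0.26. Over pairs 2 and 3 their median was 0.14 and 17 of 19 were positive. All 3 pairs were higher for 7 (36.8%, against 16.7% of all genes) and lower for none, and 3 were higher at an unadjusted p under 0.05 (15.8%, against 6.32%). Low-fat array 1 thus carried the highest medians of the 6 arrays for macrophage and matrix genes. For pericentral genes the median log ratio was 1.04, 0.91 and 0.61 on high fat, against -0.84, 1.01 and 0.44 on low fat, so low-fat array 1 was the lowest of the 6. How far cell makeup accounts for any gene was not tested.

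Endoplasmic reticulum and stress genes were split, with 17 of 31 positive and a median of 0.07, or 0.23 over pairs 2 and 3. Herpud1, which serves the degradation of misfolded proteins, stood at 1.95, 1.70 and 2.00 on high fat, against -0.44, -0.44 and 0.65 on low fat. The groups were far apart, with a difference of 1.96 (SE 0.348), about 3.88-fold, and adjusted p = 0.0812. Derl3, of the same pathway, differed by 1.03 with overlapping groups. Nupr1, a stress-induced chromatin protein, differed the other way, at -3.26, -3.72 and -3.00, against 0.80, -2.69 and -1.41 on low fat. Its difference of -2.23 became -1.31 over pairs 2 and 3.

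The growth hormone and insulin-like growth factor list had 10 of 22 positive and a median of -0.05, which turned to 0.06 over pairs 2 and 3 and to 0.08 under median centring. Stat3, the factor that carries cytokine signals, stood at -0.46, -1.15 and -0.30 on high fat, against 0.69, 0.14 and -0.05 on low fat, and differed by -0.90. Igfbp1, an insulin-repressed binding protein, stood at -3.63, -2.33 and -3.29, against -0.27, -1.55 and -1.34 on low fat, and differed by -2.03 (SE 0.683) with 1 saturated low-fat spot. The prolactin receptor gene Prlr and the acid-labile subunit gene Igfals differed by 0.61 and 0.63, with groups that did not overlap. Further Prlr probes gave 0.38 and 0.48. Retinoid genes had 14 of 22 positive differences and a median of 0.29, or 0.30 over pairs 2 and 3. Their pair medians were 0.45, 0.27 and 0.07. The retinaldehyde dehydrogenase gene Aldh1a1 stood at 2.00, 1.21 and 1.09, against 0.60, 0.34 and 0.94 on low fat, and differed by 0.81. Cyp26a1, which clears retinoic acid, differed by 1.01. The antioxidant list, of NRF2 targets and glutathione transferases, had 13 of 32 positive differences and a median of -0.08. Pairs 2 and 3 gave -0.07, and the median ranged from -0.105 to 0.065 under other settings. On this list the catalase gene Cat differed by 0.69 with overlapping groups, and Gstz1, of tyrosine breakdown, by 0.61. From Derl3 to Gstz1, the genes of the stress, hormone, retinoid and antioxidant lists named here had adjusted p-values of 0.127 to 0.241 in limma.

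No gene's diet difference was shown to differ between wild-type and Cyp1b1 null livers. The test of that difference called 0 genes in limma (0%), with 636 (4.27%) at an unadjusted p under 0.05 and a smallest adjusted p of 0.899. The difference of Cd9 was -2.00 in wild-type livers and -1.07 in null ones, that of Tdo2 1.29 and 0.85, of Decr2 0.73 and 0.80, and of Tef 1.73 and 1.47. Dbp differed by 1.78 and 1.70, and Per1 by 1.00 and 0.97, in the same order. Akr1d1 differed by 1.17 and 0.05, Msmo1 by 1.16 and 0.06, and Idi1 by 1.15 and -0.13. Scd1 differed by -1.62 in wild-type and -5.18 in null livers, where it was the 1 gene called (0.00671%, adjusted p = 0.018). For Scd1 the test between genotypes had an adjusted p of 0.899.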

How the data were processed

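Spot intensities are the deposited mean pixel brightness and median of the surrounding background in each colour, from Agilent's Feature Extraction set to local background, per the file headers. The deposited log10 ratios of Cy5 over Cy3 come from signals the software had background-subtracted and dye-normalised, per the file headers, which also hold marks for spots well above background, saturated or not uniform. The authors' deposited table gives log2 ratios of group means. The submitters' processing notes name limma for it without a version. Group-mean differences of the log10 ratios, converted to log2 of Cy3 over Cy5, matched it on 43379 of 43379 spots within 1e-06, which settles its direction. The labels name 2 labelling kits and do not say which sample had which.

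Intensities were background-corrected by normexp with an offset of 50 and normalised by loess within arrays in limma 3.58.1 (R 4.3.3), with no normalisation between arrays. Non-uniformity marks left out 120 spots. A few spots with a background far above the spot pulled the fitted background of high-fat array 2 to -371 and of null high-fat array 1 to -376, so spots over 50 units below their background were left out (16 and 8 on these arrays, and 1 to 2 on each of 3 others). The fitted backgrounds were then -6.84 and -3.85. This rule was chosen after the data had been seen. With all spots kept, 0 genes passed and 1160 had an unadjusted p under 0.05.

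Of 41174 probes, 21489 were well above background in the sample channel on all 3 arrays of at least 1 group. Each gene took its brightest such probe, for 14911 genes. Several probes were measured for 4900 genes, and 35 lacked a value on some array. None of the genes named had a missing value. The number of arrays limits the precision.

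All 12 arrays entered 1 limma fit of group means with scan as a block (degrees of freedom 6 residual and 3.63 prior), and p-values were adjusted by Benjamini-Hochberg, with a threshold of 0.05. Each wild-type scan held 1 array per diet, so the estimate is the mean of the 3 within-pair differences. Same-numbered arrays deviated together from their group means (r 0.478, 0.495 and 0.311), and the file headers give them a shared slide and scan, so the numbers pair the arrays. The steps were tested on simulated data of 14876 genes of which 50 were changed at each of 4 sizes, and 10 unchanged genes were called.

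Named genes were the 12 higher and 12 lower of smallest p without overlap between diets (named clones, predicted genes and bare probes passed over), and up to 4 members of smallest p from each of 39 lists, of which selected ones are printed. A small p favours groups that do not overlap, so for a named gene that feature is no finding. A Ciart bound compares sample channels after loess and Aquantile. The members, the lists and the rules were chosen with earlier results of these data known. Alternatives covered background, normalisation, filters, probes, block and single arrays.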

Additional observations from a re-analysis of the deposited data

How the results depend on the processing

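No gene passed an adjusted p of 0.05 in the main comparison. Scaling between arrays gave 486 genes, the Cy3 channel alone 21, an offset of 16 gave 10, slide as the block 6, probes well above background on all 12 arrays 5, every probe tested separately 4, the mean of all probes of a gene 3 and Agilent's processed signals 1. Median centring and limma's trend and robust settings gave 0 genes, with smallest adjusted p-values of 0.177 and 0.148. The 6 wild-type arrays alone gave 0 genes with and without the replicate block. Unadjusted p-values under 0.05 were then reached by 1436 and 685 genes, against 2190 in the main fit. Without the replicate block, which pairs the arrays, 1 gene passed on all 12 arrays (Cd9), against 0 with it. That fit had 1068 genes at an unadjusted p under 0.05. Agilent's processed signals gave 5 without the block and 1 with it, leaving out low-fat array 1 gave 2 and 11, and leaving out pair 1 gave 0 and 9, these 3 fits without the block being chosen after the data had been seen. Leaving out arrays or pairs gave 0 to 17 genes. The cause of these differences was not tested, except that scaling multiplied the log ratios of low-fat array 2 by 0.713 and of high-fat array 3 by 1.29. The test between genotypes gave 0 to 1 genes when arrays were left out, the 1 being without wild-type low-fat array 1, and 0 under each other setting run. All 108 named genes tested this way kept their sign under the 34 alternatives that gave a value for them. These genes were picked mostly for small p-values on these same arrays. Some alternatives repeat the same fit, and those that change only the block or the variance leave the estimate as it was. The kept signs are thus no independent support. The medians of the lists on fatty acid oxidation (0.308 to 0.54), bile acids (0.33 to 0.895), pericentral genes (0.292 to 1.21), the clock (0.158 to 0.625), fatty acid synthesis (-0.701 to -0.146) and acute phase proteins (-0.996 to -0.301) kept their sign too. Those of macrophage, matrix, periportal, lymphocyte and interferon-stimulated genes did not. Without a filter on dim probes 0 of 27975 genes passed, with 3088 at an unadjusted p under 0.05.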
